A study of Mus musculus with 12 samples.

Results

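Susd5 and 9 genes of hyaluronan metabolism and binding were followed through the lung and heart of Adam19 WT and KO mice. The 10 genes were taken by name from a table of 55679 genes, with measured values of these libraries known, and all 10 were in the table. They are Susd5, the synthases Has1 and Has2, the link proteins Hapln1, Hapln3 and Hapln4, the hyaluronidases Hyal1 and Hyal2, the receptor Cd44 and the secreted binder Tnfaip6. The heart KO and WT values of Susd5 are treated as the values it was chosen by. They are therefore given as a description with no test, as is every comparison that contains them.

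The mice were adult males on the 129S6/SvEvTac background, 3 WT and 3 KO, and the lung and the heart of each mouse gave 1 library each, 12 in all. In the KO, exons 6 and 7 of Adam19, which encodes a membrane metalloproteinase, were replaced in both alleles with an in-frame tdTomato reporter construct. The WT mice carried no construct and no mouse was treated. The allele is germline, so the comparison is of whole animals with the change in every cell. The mouse identifiers have prefixes that are not shared between the genotypes. What the prefixes stand for is not given, and whatever they mark cannot be told apart from genotype. Whole lungs and whole hearts were frozen, and stranded total RNA was sequenced to between 17674788 and 35862932 estimated counts a library.

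Hyaluronan is a long sugar polymer of the extracellular matrix. Synthases in the plasma membrane extrude it, link proteins tie it to large proteoglycans such as versican and aggrecan, hyaluronidases cut it, and receptors such as CD44 bind it at the cell surface. In the heart it is a main component of the cardiac jelly from which the valves form, and in the lung it lies in the interstitium and around the vessels and airways. Susd5 encodes a membrane protein with a Link domain, the fold by which CD44, the link proteins and TSG-6, the product of Tnfaip6, hold hyaluronan.

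The labels were checked first. The deposited log2 values of Adam19 were 9.14, 9.41 and 9.12 in WT lungs and 4.44, 3.21 and 3.50 in KO lungs, and 9.17, 9.25 and 10.27 in WT hearts and 6.67, 6.01 and 6.56 in KO hearts. Adam19 was lower in every KO library than in every WT library of its tissue. The log2 sum of 6 heart muscle markers was 20.76 to 21.04 in hearts and 13.40 to 14.66 in lungs, and that of 6 lung epithelium markers was 18.86 to 19.15 in lungs and 12.54 to 13.23 in hearts. Hopx carried the lung epithelium sum in hearts, at 12.52 to 12.95 there and with means of 13.53 in WT lungs and 12.9 in KO lungs. Sftpc, Sftpb, Sftpa1, Ager and Scgb1a1 were at 10.23 or below in every heart. By these sums each tissue carried its own markers at the higher level, and neither list was at 0 in the other organ. Lungs differed from each other in the share taken by Rn7s1, a small cytoplasmic RNA, of all gene values summed off the log2 scale. It ran from 2.1% to 34.0% in lungs, against 2.7% to 11.8% in hearts.

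Susd5 is a 41.6 kb gene of mouse chromosome 9 (GRCm39, chr9:113886208-113927798, forward strand) that overlaps no other annotated gene. It has 1 transcript in the table. Its deposited log2 values were 5.50, 4.49 and 4.35 in WT lungs, 4.19, 6.13 and 4.51 in KO lungs, 6.99, 7.51 and 7.12 in WT hearts and 8.98, 8.87 and 9.16 in KO hearts. All hearts lay above all lungs, all KO hearts lay above all WT hearts, and the KO and WT lungs overlapped.

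In the hearts, the values it was chosen by, mean Susd5 was 7.20 ± 0.27 (SD, n = 3) in WT and 9.0 ± 0.15 in KO. The difference was 1.80 on the log2 scale (SE 0.18), a 3.48-fold higher level in KO. In the lungs, which the choice did not use, mean Susd5 was 4.78 ± 0.62 in WT and 4.95 ± 1.04 in KO. The lung difference of 0.17 (SE 0.56, 95% interval -1.10 to 1.43) did not pass the test, limma over 16551 genes with Benjamini-Hochberg adjustment (adjusted p = 0.962). Without KO replicate 2, the lung with the highest Susd5, it was -0.43. The difference between the lung and the heart genotype effects was -1.63 (SE 0.63). It contains the heart values and has no test here.

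Between tissues, mean Susd5 in the lung was 2.43 below that in the heart in WT mice on the log2 scale (SE 0.38), a 5.37-fold difference, and 4.06 below it in KO mice (SE 0.46, 16.7-fold). Both contain heart values and are given as a description. With each transcript's count divided by its length, mean Susd5 was 6.92 ± 3.33 normalised estimated counts per kilobase in WT lungs, 8.85 ± 7.07 in KO lungs, 36.2 ± 7.07 in WT hearts and 126 ± 12.9 in KO hearts. In bulk tissue, fewer cells of a type and less RNA per cell cannot be told apart. The deposited table marks Susd5 as not detected, as it does 7 of the 10 genes. The mark does not follow the level alone, since 197 of the 8894 genes with a value of at least 9 in some library also carry it.

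**Figure D1:**
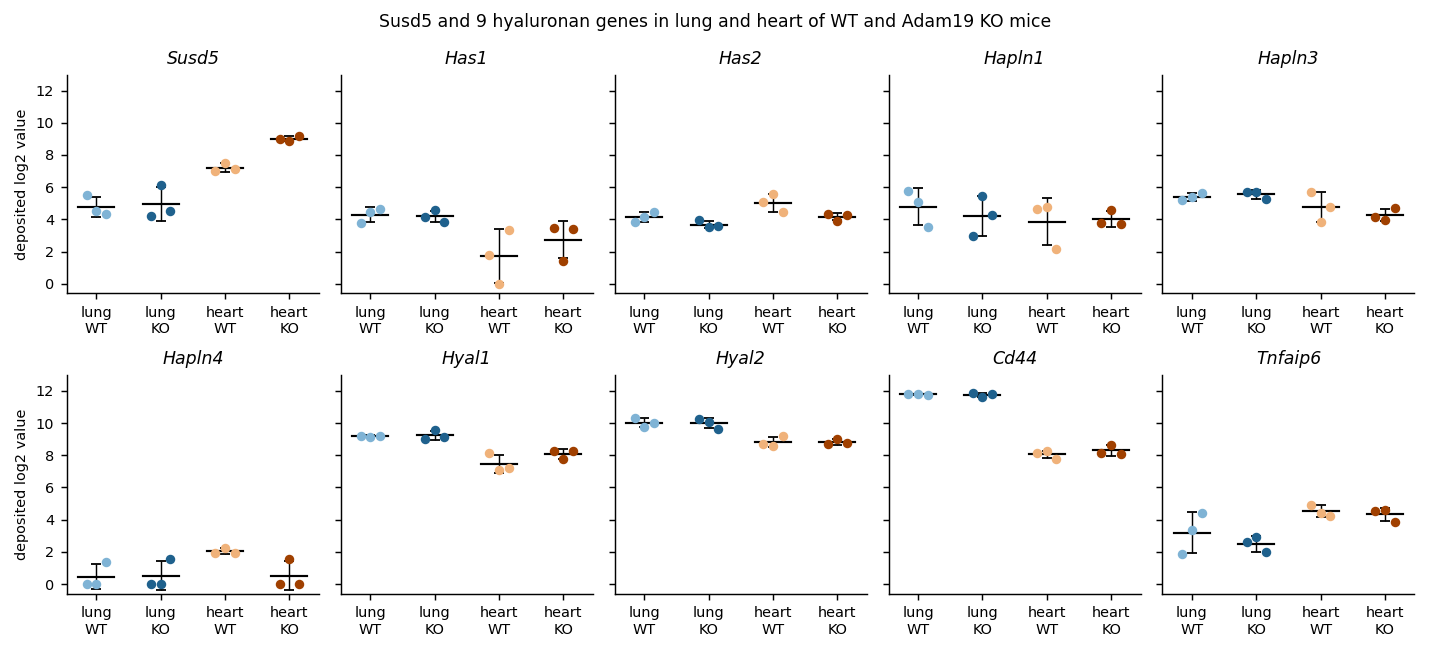
Deposited log2 value (vertical axis) of the 10 genes in lung and heart of WT and KO mice. Each point is 1 library in the order of replicates 1 to 3, lines are means and bars are SD (n = 3). The 3 KO hearts sit between 8.87 and 9.16 for Susd5, above the 3 WT hearts, and Cd44 is above 11.5 in every lung and below 9 in every heart.

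The genes whose log2 values ran most like those of Susd5 were ranked over the 12 libraries among 14185 genes, as a description in which tissue supplies most of the spread. They were Ucp3 (Pearson r = 0.965), which encodes a mitochondrial carrier of muscle, Hey2 (0.959), a transcription factor of the Notch pathway, Tspyl5 (0.959), 1810021B22Rik (0.959) and Foxc1 (0.958), a transcription factor of mesenchyme. Mean Ucp3 was 5.71 in WT lungs, 6.24 in KO lungs, 8.50 in WT hearts and 10.41 in KO hearts. Mean Foxc1 was 6.20, 6.35, 7.63 and 8.44 in the same order. Of these 5 genes Ucp3 had the widest gap between KO and WT hearts. The ranking used the heart values of Susd5, so such a gap in these genes follows in part from how they were picked.

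Marker lists of other cell types were set beside Susd5 in the same libraries. The log2 sum of 4 valve and smooth muscle markers (Myh11, Cnn1, Postn and Cthrc1) was 11.76 to 12.53 in WT hearts and 12.81 to 13.13 in KO hearts, without overlap. It was 12.92 to 13.22 in WT lungs and 13.02 to 13.17 in KO lungs, where Susd5 was low. Of its members, Cnn1, a protein of contractile smooth muscle, had a mean of 8.10 in WT hearts and 9.38 in KO hearts, and 0 of the 3 tested passed between genotypes in the heart by limma (adjusted p of 0.315 or above). The sum of 8 cartilage markers, a list added after these values were seen, was 8.60 to 9.33 in WT hearts and 9.5 to 9.81 in KO hearts, with Matn1 and Matn3 at 0 in every heart. Comp, the highest of these markers in hearts, had means of 8.31 in WT and 9.10 in KO hearts, and its libraries overlapped. Col11a2 went the other way, with 5.65 and 5.48. No cartilage marker tested passed between genotypes in the heart by limma (adjusted p of 0.609 or above). The sum of 4 atrial markers was 14.80 to 16.57 in WT and 16.03 to 17.20 in KO hearts and overlapped. Among them Nppa did not overlap, with means of 14.93 in WT and 16.0 in KO hearts, while Myl7, Sln and Myl4 did. None of these passed between genotypes in the heart by limma (adjusted p of 0.6 or above). The part of the valve, smooth muscle, cartilage and atrial lists in the Susd5 values was not tested.

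**Figure D2:**
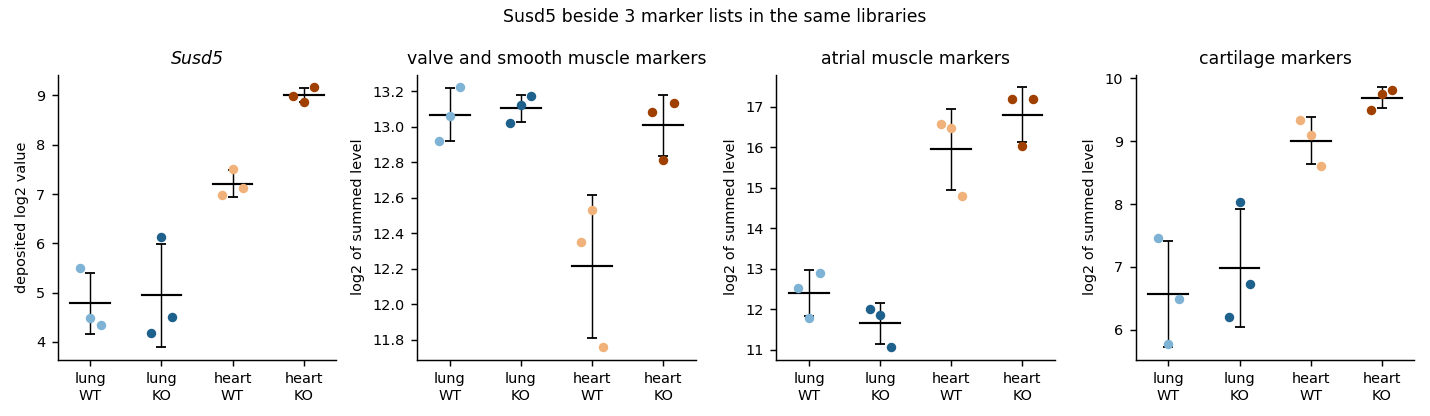
Susd5 (deposited log2 value) and the log2 sums of 3 marker lists (vertical axes, each with its own range that does not start at 0) in the same 12 libraries. Points are libraries, lines means and bars SD (n = 3). KO hearts sit above WT hearts for Susd5, the valve and smooth muscle list and the cartilage list, and overlap with them for the atrial list.

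Susd5 is left out of the counts of members called that follow. To be called, a gene needed an adjusted p below 0.05, a change of 1.5-fold or more and a group mean of 6 or more. Between genotypes in the lung, limma called 0 of the other 7 members tested (Hapln4 and Tnfaip6 had too few counts to be tested), where 0.0665% of all genes tested were called. In the heart it called 0 of the other 7 members tested (Has1 and Hapln4 were not tested), where 0.085% of all genes were called. At an unadjusted p under 0.05 both counts were also 0, against 5.93% of all genes in the lung and 7.46% in the heart. The median KO minus WT difference of these members was -0.03 in lungs and 0.01 in hearts, against 0.01 and 0.03 for all genes.

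The 2 lowest unadjusted p among these members in the heart belonged to a synthase and a hyaluronidase. Has2, the synthase needed for the heart cushions of the embryo, had values of 5.08, 5.56 and 4.46 in WT hearts and 4.36, 3.90 and 4.26 in KO hearts. The KO hearts were all below the WT hearts, and the difference was -0.86 (SE 0.39, limma adjusted p = 0.682). Hyal1, a lysosomal hyaluronidase, had 8.12, 7.09 and 7.18 in WT hearts and 8.28, 7.74 and 8.28 in KO hearts. These overlapped, with a difference of 0.63 (SE 0.29, adjusted p = 0.684).

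The intervals of the more abundant members were narrow in the lung. Between KO and WT lungs the 95% interval was -0.35 to 0.28 for Cd44, -0.51 to 0.44 for Hyal2 and -0.35 to 0.46 for Hyal1. In hearts it was -0.23 to 0.71 for Cd44 and -0.41 to 0.43 for Hyal2, and wider for Hyal1, from -0.03 to 1.29. For Hapln1, near the limit of detection, the interval ran from -2.26 to 1.09 in lungs and from -1.46 to 1.79 in hearts, wide enough to hold changes of either sign. Of the 9 members tested for a genotype effect that differed between lung and heart, none of the 8 other than Susd5 passed, limma over 12 libraries with adjusted p of 0.695 or above, and 1 gene of all 17666, or 0.00566%, passed.

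**Figure D3:**
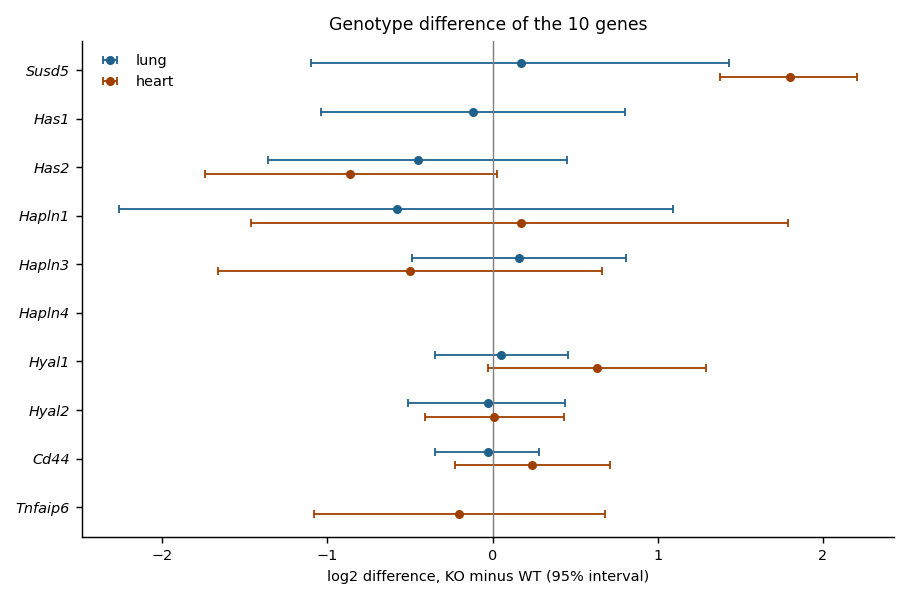
KO minus WT difference (horizontal axis, log2, with 95% intervals from limma) of each gene in lung and heart. Genes without a point had too few counts in that tissue. Susd5 in the heart is drawn as a description with no test, being the values it was chosen by. Every interval of the other genes reaches 0 or beyond.

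Between tissues, the median lung minus heart difference of all genes was 0.30 in WT and 0.28 in KO, and the members are read against that shift. In WT mice, 3 of the 8 members tested other than Susd5 were called, Cd44, Hyal1 and Hyal2, all higher in the lung, where 50.2% of all genes were called. In KO mice Cd44, Hyal1 and Hyal2 were again the 3 called of 8, and again higher in the lung, against 53.2% of all genes. By adjusted p alone, without the fold and level thresholds, 4 of 8 passed in WT (62.3% of all genes) and 6 of 8 in KO (73.2%). Has1 in both genotypes and Tnfaip6 in KO entered these tests only through the tissue where they are high, the other tissue being below the filter of 3.46 in every library, so they had to differ and are described without a p. None of these shares is read as a result about the members.

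Cd44, the main receptor for hyaluronan on leukocytes and many epithelial and mesenchymal cells, had the widest tissue difference among the members in WT mice. Its values were 11.80, 11.83 and 11.73 in WT lungs, 11.84, 11.62 and 11.80 in KO lungs, 8.14, 8.24 and 7.78 in WT hearts and 8.17, 8.66 and 8.07 in KO hearts. The lungs lay in a narrow band more than 2 units above the highest heart. Cd44 was higher in the lung by 3.73 in WT (SE 0.17, limma adjusted p = 8.62e-07, 13.3-fold) and by 3.46 in KO (SE 0.17, adjusted p = 6.45e-07, 11-fold). The sum of 5 macrophage markers was 12.82 to 12.96 in lungs and 11.50 to 11.86 in hearts, and that of 4 neutrophil markers was 10 to 10.98 in lungs and 2.69 to 4.62 in hearts, where Ly6g was at 0. Sums of T and B lymphocyte markers (9.11 to 10.03 in lungs, 4.2 to 5.21 in hearts) and endothelium markers (15.06 to 15.39, 13.79 to 13.97) were also higher in lungs. So was that of mesothelium markers (12.22 to 12.51, 9.99 to 10.69), though Wt1 among them had a lower mean in lungs. The sum of 4 fibroblast markers was 14.15 to 14.68 in lungs and 14.64 to 14.96 in hearts, with members that went opposite ways. In WT mice Pdgfra had a higher mean in lungs than in hearts (13.05 and 11.24). Dcn (11.53 and 13.81), Col1a1 (10.94 and 11.49) and Col3a1 (12.91 and 13.14) had lower ones. The part of these cells in the Cd44 difference was not tested.

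The hyaluronidases were also higher in the lung. Hyal1 had values of 9.22, 9.14 and 9.21 in WT lungs and 9.04, 9.55 and 9.15 in KO lungs, above all hearts. It was higher in the lung by 1.72 in WT (SE 0.29, limma adjusted p = 0.000909) and by 1.15 in KO (SE 0.20, adjusted p = 0.000988). Its locus on chromosome 9 is shared on the same strand with Hyal3 and Naa80, so reads of these genes may be split between them. Hyal2, a hyaluronidase anchored at the cell surface that starts the breakdown of long chains, had 10.31, 9.74 and 10.02 in WT lungs and 8.70, 8.60 and 9.17 in WT hearts. Its KO values were 10.24, 10.08 and 9.66 in lungs and 8.68, 9.04 and 8.79 in hearts. It was higher in the lung by 1.2 in WT (SE 0.22, adjusted p = 0.0016) and by 1.16 in KO (SE 0.17, adjusted p = 0.000388). With the gene value replaced by the sum of its transcripts, the WT difference lost the call (adjusted p = 0.0959). Per kilobase, Hyal1 and Hyal2 together reached 841 ± 157 in WT lungs, 873 ± 129 in KO lungs, 395 ± 79.6 in WT hearts and 419 ± 18.5 in KO hearts. The lungs did not overlap with the hearts in either genotype (exact permutation test, two-sided, with p = 0.10 for each genotype, the smallest that 3 against 3 can give). Part of the Hyal2 level came from a transcript of 323 bases, with 45.41 to 120.6 estimated counts in WT lungs and 4.479 to 10.83 in WT hearts. Division by so short a length raises the level, and the sums without this transcript were not computed.

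The synthases were low in both organs. Has1, the first of them, had values of 3.80, 4.46 and 4.64 in WT lungs, 4.15, 4.56 and 3.84 in KO lungs, 1.79, 0 and 3.33 in WT hearts and 3.44, 1.43 and 3.37 in KO hearts. Every lung lay above every heart of its genotype, by 2.60 between the means in WT (SE 0.79) and 1.44 in KO (SE 0.57), with every heart below the filter and 1 at 0. The lung minus heart difference of Has2 was -0.90 in WT (SE 0.40, limma adjusted p = 0.0819) and -0.50 in KO (SE 0.31, adjusted p = 0.185), and neither passed. Under quantile normalisation the adjusted p of Has2 was 0.00202 in WT and 0.00164 in KO.

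Has3, the third synthase, is not one of the 10 genes and was singled out after its values were seen. It was lower in the lung by 1.26 in WT (SE 0.34, limma adjusted p = 0.0118) and by 1.10 in KO (SE 0.24, adjusted p = 0.00296). Per kilobase the 3 synthases summed to 20.8 ± 6.22 in WT lungs, 19.1 ± 1.93 in KO lungs, 28.5 ± 4.77 in WT hearts and 24.8 ± 5.12 in KO hearts. The sums of the tissues overlapped in both genotypes (exact two-sided permutation test, p = 0.20 in WT and 0.30 in KO), and so did those of the genotypes (p = 0.80 in lungs and 0.50 in hearts). Has1 gave 8.98 ± 2.73 of the WT lung sum and 1.69 ± 1.99 of the WT heart sum, while Has3 gave 8.44 ± 3.07 and 20.2 ± 4.63.

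The link proteins were low in both organs. Hapln3 had values of 5.18, 5.36 and 5.66 in WT lungs, 5.73, 5.68 and 5.25 in KO lungs, 5.72, 3.82 and 4.75 in WT hearts and 4.13, 3.95 and 4.70 in KO hearts. It was higher in KO lungs than KO hearts by 1.29 (SE 0.31, limma adjusted p = 0.00514, and 0.319 under quantile normalisation). In WT the difference was 0.63 (SE 0.49, adjusted p = 0.289), WT heart replicate 1 lying above all WT lungs. Hapln1, known from cartilage and embryonic heart, ranged from 2.15 to 5.79 over the 12 libraries with no order by group. The highest value was that of WT lung replicate 1. That value exceeds the one of its coding transcript, 4.03, by more than the library constant of 0.2594, and the library also had 2.92 estimated counts of a short transcript with a retained intron. Hapln4, a link protein of brain, was at 0 in 6 of 12 libraries and at most 2.24 in the others. Its WT hearts, 1.95, 2.24 and 1.93, were above its KO hearts, 0, 1.56 and 0, on fewer than 3 estimated counts each and without a test.

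Tnfaip6 encodes TSG-6, which transfers heavy chains of inter-alpha-inhibitor onto hyaluronan during inflammation. Its values were 1.85, 3.34 and 4.40 in WT lungs, 2.60, 2.90 and 1.97 in KO lungs, 4.93, 4.44 and 4.23 in WT hearts and 4.54, 4.58 and 3.88 in KO hearts. In KO the lungs, each below the filter, were all below the hearts, by 1.85 between the means (SE 0.39). In WT the lung minus heart difference was -1.33 (SE 0.64, limma adjusted p = 0.0993), with WT lung replicate 3 inside the range of the hearts. Without that replicate the difference was -1.94. The WT lungs left, 1.85 and 3.34, are then below the filter, so it is described without a p.

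**Figure D4:**
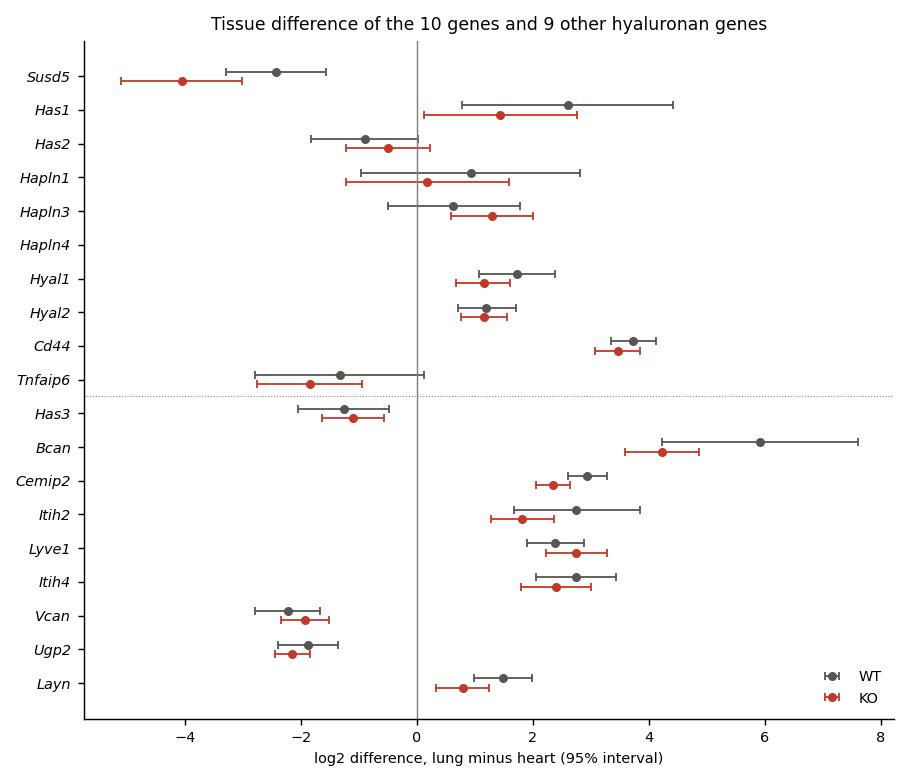
Lung minus heart difference (horizontal axis, log2, with 95% intervals from limma) in WT and KO mice, for the 10 genes above the dotted line and 9 other hyaluronan genes below it. Cd44, Hyal1 and Hyal2 lie to the right of 0 and Susd5 (a description), Has3, Vcan and Ugp2 to the left in both genotypes. Has1, Bcan and, in KO, Tnfaip6 entered the test only through the tissue where they are high, so their intervals are a description too. Hapln4 had too few counts.

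By level per kilobase, the order differed between the organs. In WT lungs Cd44 (781 ± 27.4) and Hyal2 (626 ± 152) stood first and did not differ beyond their spread, followed by Hyal1 (215 ± 5.91). The Hyal2 level includes transcripts of 323 and 544 bases, whose short lengths raise it, so its place in lungs depends on them in part. Hapln3 (12.5 ± 2.25), Has1 (8.98 ± 2.73), Susd5 (6.92 ± 3.33), Hapln1 (6.34 ± 4.28), Tnfaip6 (6.09 ± 5.22) and Has2 (3.35 ± 0.777) formed a low group in which neighbours overlapped, and Hapln4 (0.134 ± 0.232) was last. In WT hearts Hyal2 (327 ± 82.0) stood first. Hyal1 (68.3 ± 28.7), Cd44 (55.5 ± 11.7) and Susd5 (36.2 ± 7.07) followed, each overlapping with the next, and all 3 lay above Tnfaip6 (12.8 ± 3.77). In KO hearts Susd5 (126 ± 12.9) was second to Hyal2 (318 ± 36.9), and its libraries, 114 to 140, met those of Hyal1, 79.6 to 114, at the edge.

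Cd44 is read through alternative exons. Its transcripts share a common set of exons and differ in up to 10 variable exons, v1 to v10 in the order of transcription, which lengthen the stalk between the hyaluronan-binding part and the membrane. In the annotation, v1, v2 and v3 occur in only 1 of the 9 transcripts of the table, the longest form with v1 to v10 (ENSMUST00000005218). v7 occurs in that form, in the form with v6 to v10 (ENSMUST00000060516) and in a rare form with v4 to v10, but not in the form with v5, v6, v8, v9 and v10 (ENSMUST00000111194). Reads of these 4 exons therefore help to tell the long forms apart, and their sequences are given for that reason, read from GRCm39 on the reverse strand of chromosome 2, with the exon in capitals and 12 intron bases before and 8 after it in lower case. All 4 end their upstream intron in ag and begin the next in gt.
v1 (exon 6 of the longest form, coding, 126 bases, chr2:102679002-102679127): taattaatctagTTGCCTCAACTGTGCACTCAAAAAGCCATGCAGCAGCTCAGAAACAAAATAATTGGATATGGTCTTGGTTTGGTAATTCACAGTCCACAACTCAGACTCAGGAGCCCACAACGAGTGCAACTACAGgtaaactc
v2 (exon 7, coding, 117 bases, chr2:102676748-102676864): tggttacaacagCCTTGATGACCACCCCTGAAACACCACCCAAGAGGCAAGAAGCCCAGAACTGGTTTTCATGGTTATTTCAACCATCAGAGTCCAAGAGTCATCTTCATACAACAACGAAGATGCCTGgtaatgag
v3 (exon 8, coding, 126 bases, chr2:102675630-102675755): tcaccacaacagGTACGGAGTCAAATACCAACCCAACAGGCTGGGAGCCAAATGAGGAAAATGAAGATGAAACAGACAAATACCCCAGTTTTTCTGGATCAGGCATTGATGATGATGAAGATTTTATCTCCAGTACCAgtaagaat
v7 (exon 12, coding, 126 bases, chr2:102668158-102668283): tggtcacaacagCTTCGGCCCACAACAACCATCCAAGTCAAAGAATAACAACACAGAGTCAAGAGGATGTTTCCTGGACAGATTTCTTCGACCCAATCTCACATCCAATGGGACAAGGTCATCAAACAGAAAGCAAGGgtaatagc

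The longest form, with all 10 variable exons, took 12.2%, 7.78% and 10.6% of the estimated counts of Cd44 in WT lungs and 9.60%, 8.92% and 13.7% in KO lungs. It took 0 in all WT hearts and 1.24%, 0 and 0 in KO hearts, the 1.24% being 3.53 estimated counts. Every lung was above every heart. The depth behind these shares was unequal, 3092 to 4941 estimated counts of Cd44 in lungs and 116.8 to 415.7 in hearts. At the depth of the hearts, 0 allows a share of up to 0.722% in the deepest and 2.57% in the shallowest (3 counts of the total, counting error only), below the lowest lung.

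Together, the forms with v1 to v10 and with v6 to v10 made up 15.2% ± 2.77 (SD, n = 3) in WT lungs and 15.1% ± 1.5 in KO lungs, against 0 in every WT heart and 0.412% ± 0.714 in KO hearts. The tissues did not overlap in either genotype (exact permutation test, two-sided, with p = 0.10 for each genotype, the smallest possible), and the genotypes overlapped in the lung (p = 1.0). The form with v5, v6 and v8 to v10 took 54.7% ± 3.42 in WT lungs and 49.8% ± 17.2 in WT hearts, and these overlapped (exact p = 0.70). KO lungs were at 49.5% ± 1.51 for this form, each below the lowest WT lung (exact p = 0.10). The form with no variable exon (ENSMUST00000099673) took 28.5% ± 2.61 in WT lungs and 50.2% ± 17.2 in WT hearts (overlapping, exact p = 0.20). It took 33.5% ± 3.11 in KO lungs and 50.8% ± 2.69 in KO hearts (not overlapping, exact p = 0.10). Adjusted over the 28 exact tests of sums, ratios and shares (Benjamini-Hochberg), the lowest of these exact p became 0.35. Transcript shares are estimates of Salmon from short reads, and the log2 sum of lung epithelium markers moved with the long forms. It was 18.86 to 19.15 in lungs and 12.54 to 13.23 in hearts, where Hopx carried it. The part of these markers was not tested.

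**Figure D5:**
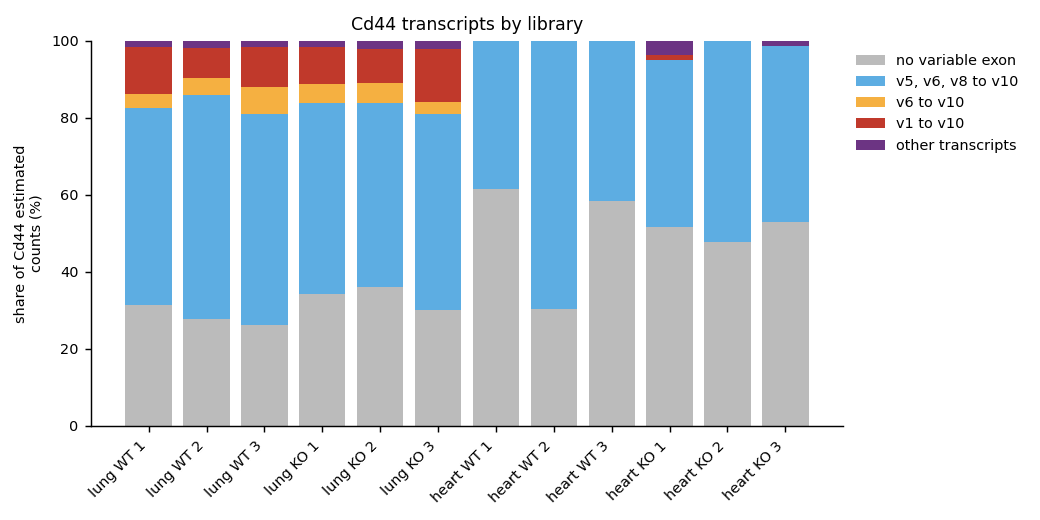
Share of the estimated counts of Cd44 (vertical axis, %) held by its transcripts in each of the 12 libraries. The forms with v1 to v10 and v6 to v10 are present in all 6 lungs, and in hearts they appear once, as 1.24% of the longest form in KO replicate 1.

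A list of 35 further genes of hyaluronan supply, breakdown and binding placed the members among their partners. Between genotypes 0 of 29 tested were called in the lung and 0 of 24 in the heart, by limma, where 0.0665% and 0.085% of all genes were called. At an unadjusted p under 0.05 there were 2 and 6, where all genes gave 5.93% and 7.46%. Between tissues 17 of 27 were called in WT, 12 higher and 5 lower in the lung, and 16 of 29 in KO, 11 higher and 5 lower, against 50.2% and 53.2% of all genes. Of these, 15 were called in both genotypes.

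Of the 4 lecticans, the matrix proteoglycans that link proteins hold on hyaluronan, Vcan was lower in the lung, Bcan was higher, and Acan and Ncan did not pass between tissues. Vcan, the versican of heart valves and vessels, was lower in the lung by 2.23 in WT (SE 0.24, limma adjusted p = 8.52e-05) and 1.93 in KO. Bcan, encoding brevican and known from brain, had WT lungs at 7.86, 7.83 and 7.63 and WT hearts at 3.13, 2.45 and 0. Its mean was higher in the lung by 5.91 in WT (SE 0.73) and 4.23 in KO, and with every heart below the filter it entered the test only through the lungs. The lung minus heart difference of Ncan was 0.08 in WT (adjusted p = 0.925) and 0.02 in KO, and that of Acan -1.14 in WT (limma adjusted p = 0.465) and -0.74 in KO (0.516). Acan, encoding aggrecan and singled out after its values were seen, had 3.67, 4.20 and 3.95 in WT hearts and 5.92, 7.59 and 5.62 in KO hearts. These did not overlap, and the difference of 2.44 (SE 0.50) did not pass the test (adjusted p = 0.29). In lungs Acan ran from 0 to 7.64.

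Among receptors and enzymes, Lyve1, the hyaluronan receptor of lymphatic vessels, was higher in the lung by 2.38 in WT (SE 0.22, limma adjusted p = 2.94e-05) and 2.75 in KO. Of the 4 lymphatic markers, 3 had higher means in WT lungs than WT hearts, Flt4 (10.16 and 9.40), Ccl21a (9.76 and 9.04) and Pdpn (10.57 and 6.50), and Prox1 had a lower one (6.17 and 11.57). Their sum, which Prox1 carries in hearts, was 11.26 to 12.28 in lungs and 11.68 to 12.24 in hearts, and their part in the Lyve1 difference was not tested. Cemip2, encoding a membrane protein linked to hyaluronan breakdown, was higher in the lung by 2.93 in WT and 2.35 in KO, and the receptor gene Layn by 1.48 and 0.79. Itih2 and Itih4, of the family of inter-alpha-inhibitor heavy chains, were higher by 2.75 and 2.74 in WT and by 1.82 and 2.40 in KO. Ugp2, which makes the UDP-glucose from which one sugar of hyaluronan derives, was lower in the lung by 1.88 in WT and 2.15 in KO. Vcan, Bcan, Lyve1, Cemip2, Layn, Itih2, Itih4 and Ugp2 were picked for being called in both genotypes.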

How the data were processed

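Stranded total RNA of the lung and heart of 6 mice was sequenced. The authors quantified reads with Salmon against GENCODE vM33 transcripts of mm39, and the submitters' notes also name STAR, cutadapt and limma 3.42.2. The deposited values are on a log2 scale. Transcript values are log2 of 1 + estimated count, and for genes with 1 transcript the gene value is that plus a constant for each library (-0.6284 to 0.7959). How transcripts were combined into genes is not given in the sources used here.

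Genes were tested with limma 3.58.1 in R 4.3.3 (lmFit, eBayes with trend) on the deposited log2 values. Genes entered a test with 3 or more libraries at 3.46 (10 estimated counts) or higher, with Benjamini-Hochberg adjustment over all of them. Called genes had an adjusted p under 0.05, a fold of at least 1.5 and a group mean of at least 6. Each comparison used only the 6 libraries of its groups. The genotype effect was compared between tissues over 12 libraries. Sums and shares of members were compared with exact permutation tests (scipy 1.17.1). Levels per kilobase divided each transcript's scaled count by its length in the vM39 release of GENCODE on the same assembly, where some transcripts have another version. Cartilage markers apart, the marker and hyaluronan lists, like the members, were chosen with earlier results of these data known. Genes named were the 10 members, Adam19, the 5 genes most like Susd5 by Pearson r among genes of at least 3.46 in 9 libraries, and of the 35 other genes the 8 with the largest tissue difference called in both genotypes. Lung and heart of 1 mouse share a replicate number through the mouse identifiers. Over 17666 genes the correlation of their deviations from the group means was -0.068 to 0.136. Each fit was tested on simulated data. Alternatives were other filters, scalings, a pseudocount of 10, limma-voom, summed transcripts, a shared fit, a block for the mouse and leaving out each library. No sequence of a protein was used here. Replicates were separate mice, and no 2 libraries of a group held equal values in more than 4.02% of genes.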

Additional observations from a re-analysis of the deposited data

How the results depend on the processing

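Over 39 results of single members, those of Susd5 that contain heart values left out, 32 kept their side of the adjusted p of 0.05 under every alternative run. Of 638 values under alternatives, 16 lost the threshold, 7 gained it and 0 of those past it changed sign, while 35 values that did not pass changed sign. These counts hold the tissue tests of Has1 and of Tnfaip6 in KO, which are described without a p above. Has1 gave 4 of the losses in WT and 10 in KO. The gains include Tnfaip6 in WT without lung replicate 3, likewise described without a p. The heart difference of Susd5, given as a description, was 1.69 to 1.95 when 1 library was left out, and the cause was not tested. Among the members other than Susd5, the replicate block for the mouse changed no call between tissues. By adjusted p alone it lost only Has1 in KO, and 0 of these members passed for the difference of genotype effects. No paired analysis was possible between genotypes because WT and KO libraries come from different mice. Has2 passed in WT under limma without the trend (0.0478), with 12 libraries (0.0404) and without WT heart replicate 3 (0.0392). Over all genes, calls in the lung went from 11 to 1 with the filter in every library, those in the heart from 13 to between 7 (the same filter) and 21 (without KO replicate 2), and the difference of genotype effects from 1 to between 0 and 6. Median centring and quantile normalisation moved the median tissue difference of all genes from 0.301 to 0.172 and 0.0569 in WT. Leaving out each library for the sums, ratios and shares of members, an alternative added after the data were seen, turned the sign of 12 of the 28 differences or brought them to 0, all 12 of them among groups that overlapped. Depth limits Hapln4, Has1 in hearts and Tnfaip6 in lungs, where a few estimated counts set a value.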
